A study of Mus musculus with 4 samples.

Results

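The 10 genes described here encode cytokines, chemokines and related peptides, grouped here as epithelial: Il18, Il1rn, Il33, Ccl6, Ccl20, Ccl28, Cxcl16, Cx3cl1, Csf1 and Edn1. They were chosen by symbol with earlier results of these data known, so their counts and medians beside those of all genes are description only. Each was measured by 1 probe set whose only gene symbol is that gene, so all 10 were found among the 19938 genes of the array. The arrays hold RNA of male C57BL/6 mice, 11 weeks old, that ate a diet high in fat (40% of energy) and low in calcium for 14 days. The 4 groups were surface cells and crypt cells of mice whose diet held heme at 0.5 µmol/g, and surface cells and crypt cells of mice on the same diet without heme. Heme is the iron-containing pigment of red meat. Laser capture microdissection took the cells out of frozen Swiss rolls of colon, and the RNA was pooled over 3 mice for each heme group and over 4 mice for each control group. Each group is therefore 1 pool on 1 array, both compartments of a diet were taken from the same mice, and nothing here measures the spread between mice.

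Colon epithelium signals to the cells beneath it through secreted cytokines and chemokines. Interleukin-18 is made as an inactive precursor and is cut by caspase-1 in inflammasomes, interleukin-33 is stored in the nucleus and released from damaged cells, and Il1rn encodes the antagonist that occupies the interleukin-1 receptor without signalling. Chemokines draw cells that carry the matching receptor: Ccl20 acts through Ccr6, Ccl28 through Ccr10 and Ccr3, Cxcl16 through Cxcr6 and Cx3cl1 through Cx3cr1, and the rodent chemokine Ccl6 acts through Ccr1. Csf1 supports macrophages, and Edn1 encodes the precursor of endothelin-1, a peptide that narrows vessels.

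Values are log2 expression values made with RMA, a method that corrects, normalizes and summarises the probes of a probe set. Every comparison is a difference of log2 values with no replicate check, so no p-value or standard deviation exists. A gene is called higher or lower when its log2 difference was 1 or more in size, which is 2-fold, and its value was 5.75 or more on at least 1 array compared. That floor is the median over every gene and array. The heme and the compartment comparisons draw on the same 4 arrays and are not independent of each other. As a yardstick for measurement alone, the 436 genes with a pair of probe sets at the floor gave heme against control differences in surface cells that disagreed within the pair by a median of 0.13 and by 0.48 at the 90th percentile. In crypt cells 450 such pairs disagreed by a median of 0.09 and by 0.35 at the 90th percentile. These figures leave out variation between mice, and levels of different genes are not comparable, since probe sets differ in brightness. Known markers followed the compartment labels on both diets: all 9 surface colonocyte markers were higher in surface cells, with medians of 3.39 on heme and 4.51 on control, and of 9 crypt base and dividing cell markers 8 on heme and 9 on control were lower.

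Heme was accompanied by lower levels of several of these genes in surface cells. Ccl6, Edn1 and Cx3cl1 were at least 2-fold lower and none of the 10 was at least 2-fold higher. Il1rn, at 0.997 on the log2 scale, lay just under the 2-fold line and was the only one of the 10 with a difference above 0. The median difference of all 10 was -0.74, beside -0.04 for all 19938 genes. Among the 10282 genes that reached the floor in this comparison, 2.01% were at least 2-fold lower and 3.62% at least 2-fold higher. Of the 10 genes 8 reached the floor, and Il33 and Csf1 did not. Below 0 lay 7 of these 8 genes, beside 51.4% of all genes at the floor.

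In crypt cells, Ccl6, Edn1 and Il18 were at least 2-fold lower with heme, again with none of the 10 at least 2-fold higher. The median of all 10 was -0.41, beside 0.01 for all genes. Below 0 lay 7 of the 10, among them Il33 and Cxcl16, which were below the floor. Of the 7 genes at the floor 5 lay below 0 and 2 above, beside 48.4% of all genes at the floor below 0. Of the 10491 genes at the floor, 1.19% were lower and 1.78% were higher, a split of 125 and 187 genes that became 63 and 246 when arrays were centred on ribosomal protein genes. Centring on pan-epithelial genes gave 76 and 290. These centrings moved the median of the genes at the floor to 0.17 and 0.16. Under them Il18, at -0.93 and -0.91, was no longer called, while Ccl6 and Edn1 were. Of the 10 genes 7 reached the floor here, and Il33, Ccl20 and Cxcl16 did not. Epithelial markers also differed between the crypt pools: 4 of the 9 surface colonocyte markers were called higher with heme (Aqp8 2.55, Slc9a3 2.05, Krt20 1.25 and Slc26a3 1.22; list median 0.65). Of the 9 crypt base and dividing cell markers, the stem cell gene Lgr5 (-1.07) was lower, and the cyclin gene Ccna2 (1.51) and the oxidase gene Nox1 (1.19) were higher. The part of these differences in the results for crypt cells was not tested.

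**Figure D1:**
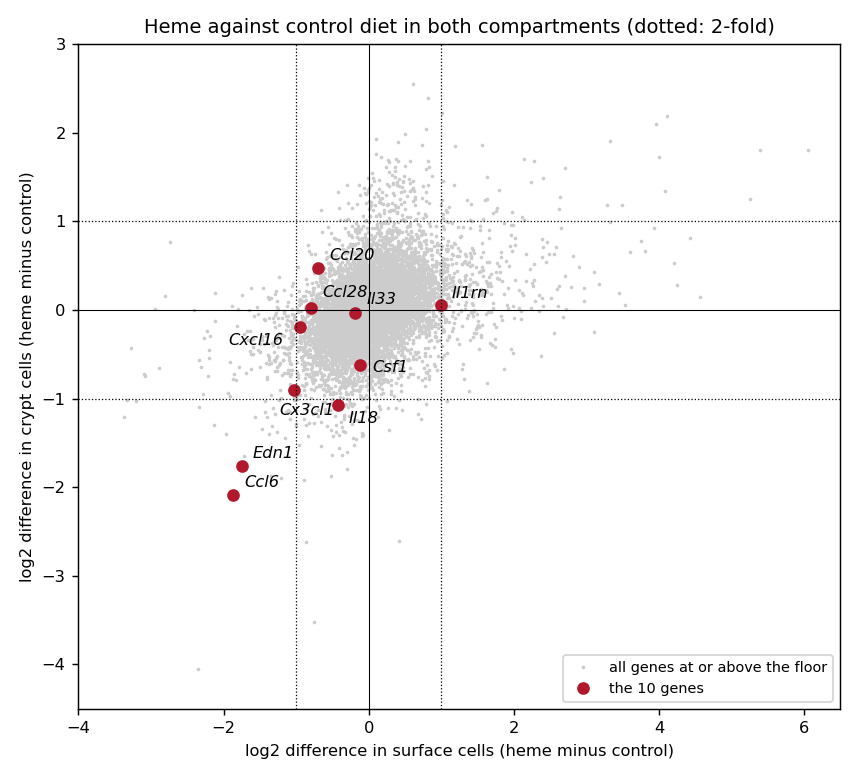
Log2 difference between heme and control diet in surface cells (horizontal axis) and in crypt cells (vertical axis). Red points are the 10 cytokine and chemokine genes, grey points all genes at or above the floor on any array, and dotted lines mark 2-fold. Ccl6 (-1.87 and -2.08) and Edn1 (-1.75 and -1.76) lie past 2-fold on both axes, and Il1rn (0.997 and 0.05) is alone on the right among the red points.

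Upstream sequences are shown for the 3 genes lower in heme surface cells and for Il1rn, the gene that differed the other way there. They come from RefSeq (GRCm38.p6) and are the 250 bases before the annotated start, 5′ to 3′ on the gene's strand. Promoter entries were found for 9 of the 10 genes, Cxcl16 being named only. Capitals mark matches, on either strand, to GGGA followed by any 4 bases and CC (a form of the NF-kB motif), TGANTCA (AP-1) or TGACNNNGC (antioxidant response element). The entries compared were 300 bases long, 50 of them after the start.
Ccl6, chr11:83593088-83593337, minus strand: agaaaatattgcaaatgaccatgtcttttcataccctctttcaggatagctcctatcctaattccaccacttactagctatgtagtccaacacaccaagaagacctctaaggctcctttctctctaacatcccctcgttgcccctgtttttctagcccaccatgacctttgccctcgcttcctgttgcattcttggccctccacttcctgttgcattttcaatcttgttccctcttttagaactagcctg
Edn1, chr13:42301226-42301475, plus strand: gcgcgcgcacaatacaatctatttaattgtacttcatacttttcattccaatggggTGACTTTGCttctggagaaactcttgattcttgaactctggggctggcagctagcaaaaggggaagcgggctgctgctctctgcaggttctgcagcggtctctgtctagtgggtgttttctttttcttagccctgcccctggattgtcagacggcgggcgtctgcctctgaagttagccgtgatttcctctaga
Cx3cl1, chr8:94771930-94772179, plus strand: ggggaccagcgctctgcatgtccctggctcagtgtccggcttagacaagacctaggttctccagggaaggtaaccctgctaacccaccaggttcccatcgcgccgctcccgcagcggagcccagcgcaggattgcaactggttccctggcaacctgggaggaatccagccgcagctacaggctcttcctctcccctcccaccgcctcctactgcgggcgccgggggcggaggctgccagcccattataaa
Il1rn, chr2:24336610-24336859, plus strand: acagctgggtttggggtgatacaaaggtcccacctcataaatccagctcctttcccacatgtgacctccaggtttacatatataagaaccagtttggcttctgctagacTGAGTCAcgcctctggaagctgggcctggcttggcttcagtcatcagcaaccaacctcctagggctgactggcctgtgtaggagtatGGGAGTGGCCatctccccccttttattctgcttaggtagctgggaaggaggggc

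Among these windows, the Edn1 window held 1 match, to the antioxidant response element form, with its first base at position -194 from the start. The Il1rn window held an AP-1 match at position -141 and an NF-kB match at position -54, and the windows at the other Il1rn starts held none. The array value does not tell the Il1rn starts apart. No match lay in the windows of Ccl6 and Cx3cl1, or in those of Il18 and Il33. Ccl20 had 1 NF-kB match at position -81, Csf1 had 3 NF-kB matches, of which those at positions -155 and -154 overlap, and Ccl28 had 1 AP-1 match at position 21. Over all 32851 promoter entries, 20.7% held the NF-kB form, 7.81% the AP-1 form and 12.4% the antioxidant response element form. The matches describe letters in these windows and show nothing about binding.

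Of the interleukin-1 family, Il18 was measured at 7.97 in heme surface cells, against 8.40 in control surface cells, and at 5.07 in heme crypt cells, against 6.13 in control crypt cells. The crypt difference of -1.07 rests on a heme value below the floor, and it was -0.64 with log2(2^value + 32), which damps differences between low values. The surface difference of -0.43 was smaller than the disagreement of probe set pairs at the 90th percentile. Il1rn stood at 9.25 in heme surface cells, against 8.25 in control surface cells (0.997). It passed 2-fold with cyclic loess (1.01), ribosomal protein centring (1.04) and pan-epithelial centring (1.05). In crypt cells Il1rn was at 6.66 with heme, against 6.61 without. The antagonist thus had its highest value on the heme surface array, while Il18 had its highest on the control surface array. Il33 lay between 3.85 and 4.30 on all 4 arrays, below the floor, and no difference is read from it.

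The secreted chemokines differed among themselves. Ccl6 had 6.79 in heme surface cells, against 8.66 in control surface cells (-1.87, 3.65-fold lower), and 8.61 in heme crypt cells, against 10.70 in control crypt cells (-2.08, 4.24-fold lower). It ranked 33 from the lowest of 10282 genes in the surface comparison and 5 from the lowest of 10491 in the crypt comparison. Across the alternatives in scaling and offset, its difference stayed between -1.93 and -1.61 in surface cells and between -2.08 and -1.93 in crypt cells. Ccl28, which attracts antibody-secreting cells to mucosa, had 7.83 in heme surface cells, against 8.62 in control surface cells (-0.79), and 8.59 in heme crypt cells, against 8.57 in control crypt cells (0.03). The heme surface array was thus the low one for Ccl28, and the other three lay between 8.57 and 8.62. Ccl20, which draws dendritic cells and lymphocytes, reached the floor on 1 array: it had 5.13 in heme surface cells, against 5.83 in control surface cells, and 5.33 in heme crypt cells, against 4.85 in control crypt cells. All of these Ccl20 values lie near or below the floor.

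Both transmembrane chemokines, which are anchored in the membrane and can be shed, were lower in heme surface cells, one of them past 2-fold. Cx3cl1 had 8.07 in heme surface cells, against 9.11 in control surface cells (-1.04), and 6.22 in heme crypt cells, against 7.12 in control crypt cells (-0.90). Its surface call sits on the 2-fold line and was lost with log2(2^value + 32), at -0.95, with ribosomal protein centring, at -0.99, and with pan-epithelial centring, at -0.98. Cxcl16 had 6.53 in heme surface cells, against 7.47 in control surface cells (-0.94), and 5.17 in heme crypt cells, against 5.37 in control crypt cells, both below the floor. For Cx3cl1 the heme value was the lower one in both compartments by a similar amount, while a crypt difference for Cxcl16 could not be read.

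Edn1 had 7.83 in heme surface cells, against 9.57 in control surface cells (-1.75, 3.35-fold lower), and 5.05 in heme crypt cells, against 6.81 in control crypt cells (-1.76, 3.38-fold lower). It ranked 40 from the lowest in surface cells and 11 from the lowest in crypt cells. The heme crypt value lies below the floor, and with log2(2^value + 32) the crypt difference was -1.14 and the surface difference -1.61. Csf1 had 5.61 in heme surface cells, against 5.73 in control surface cells, both just under the floor, and 5.65 in heme crypt cells, against 6.27 in control crypt cells (-0.62). Its control crypt value was the only one of the 4 above the floor.

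**Figure D2:**
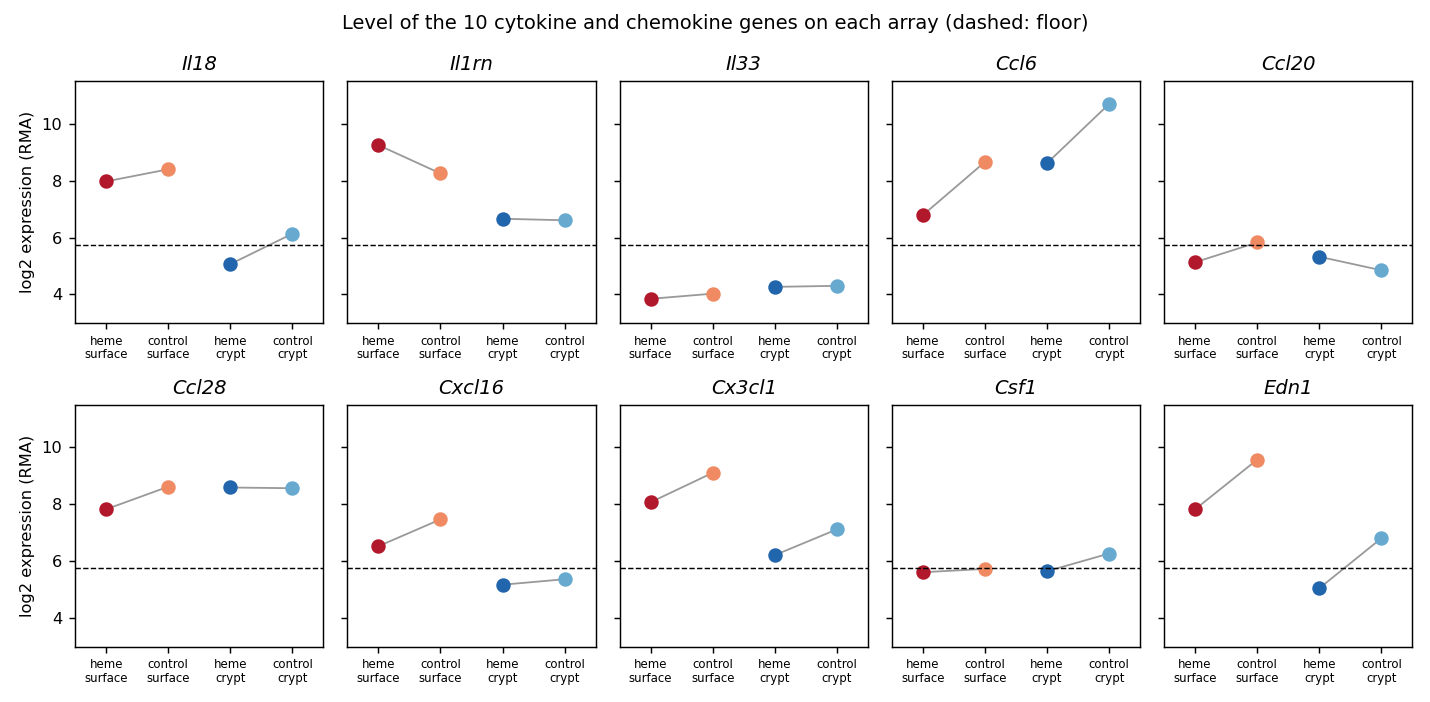
Log2 expression of each of the 10 genes (vertical axis) on the heme surface, control surface, heme crypt and control crypt arrays, 1 point per array, with lines joining the diets within a compartment and a dashed line at the floor of 5.75. Ccl6, Edn1 and Cx3cl1 slope upward toward control in both compartments, Il1rn slopes the other way in surface cells (9.25 with heme, 8.25 without), and Il33 stays below the floor.

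The comparison of surface with crypt cells places each gene along the crypt axis. On the heme diet, Il18 (2.91), Edn1 (2.77), Il1rn (2.59), Cx3cl1 (1.86) and Cxcl16 (1.35) had surface values more than 2-fold above their crypt values, and Ccl6 (-1.83) was lower. The control diet gave the same calls, with Edn1 at 2.76, Il18 at 2.26, Cxcl16 at 2.10, Cx3cl1 at 1.99, Il1rn at 1.64 and Ccl6 at -2.04. At the floor, 15.3% of 10698 genes were higher and 16.5% lower on heme, and 12.0% of 10864 genes were higher and 13.5% lower on control. Of the 10 genes 7 reached the floor on heme and 9 on control. For Il18, Edn1 and Cxcl16 on heme, and for Cxcl16 on control, the crypt value was below the floor, and with log2(2^value + 32) Cxcl16 on heme was at 0.87 and was not called.

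These surface against crypt differences depend on how the arrays are scaled. Ribosomal protein genes were themselves lower in surface cells, and centring on them moved the median of the genes at the floor to 1.15 on heme and 1.26 on control. The splits became 6871 higher and 321 lower genes on heme (1637 and 1763 before) and 7534 and 120 on control (1301 and 1464 before). Centring on 10 pan-epithelial genes moved the median to -1.05 on heme and -0.94 on control, with splits of 557 and 6266 on heme and 461 and 5316 on control. Under both centrings Ccl6 remained below 0, at -0.68 and -2.81 on heme and at -0.80 and -2.91 on control, and was no longer called with the ribosomal protein genes. Il18, Edn1, Il1rn, Cx3cl1 and Cxcl16 remained above 0 under both. Pan-epithelial centring took Cxcl16 (0.37) and Cx3cl1 (0.88) on heme and Il1rn (0.77) on control under 2-fold. Ccl20 on heme, and Ccl28, Csf1 and Il33 on either diet, took either sign.

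Markers of other cells also differed between the compartments. The endothelial genes Kdr (2.29 on heme, 1.44 on control), Emcn (2.21 and 1.03) and Plvap (1.55 and 1.11) were higher in surface cells on both diets. They stayed above 0 under both centrings, and pan-epithelial centring took all of them under 2-fold on control and Plvap on heme. Emcn was below the floor in crypt cells on both diets. With log2(2^value + 32), Emcn (0.70) and Plvap (0.98) on control were not called. Lyve1 was lower in surface than in crypt cells (-0.95 on heme, -1.14 on control) and was called on control. Its sign turned on both diets with ribosomal protein centring. Of the 9 endothelial markers, 8 lay above 0 on heme and 6 on control. The median of the 9 endothelial markers was 0.98 on heme and 0.23 on control. Of 13 smooth muscle and fibroblast markers, Dcn (-1.61 on heme, -2.01 on control) was lower in surface cells on both diets. On control 4 further ones were lower, among them Lum (-2.19), Acta2 (-1.36) and Myh11 (-1.15), whose sign turned with ribosomal protein centring (0.09), while Pdgfra was higher on heme (2.65) and on control (1.32). Their list median was 0.13 on heme and -0.30 on control. The part of these cells in the surface against crypt differences of the 10 genes, among them Edn1, Cx3cl1 and Ccl6, was not tested.

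**Figure D3:**
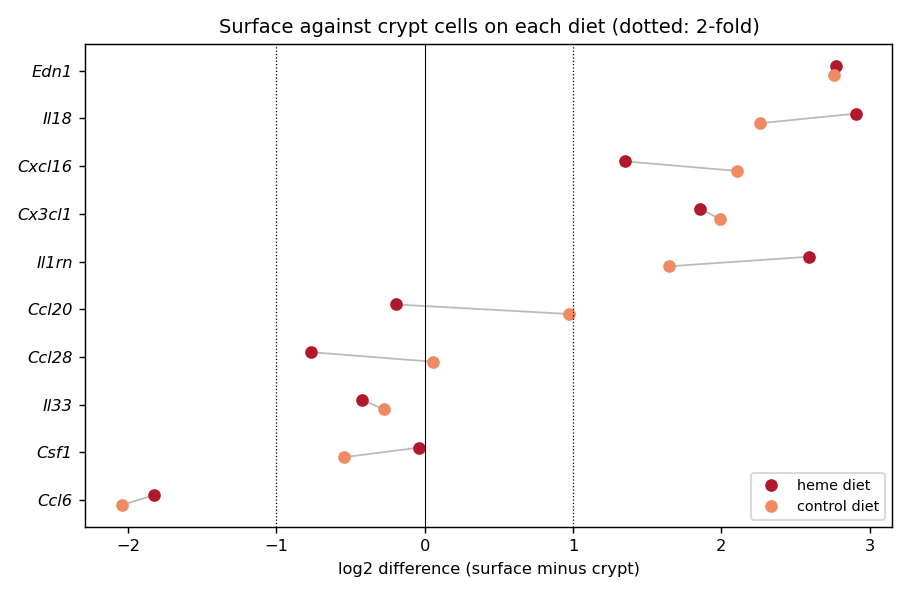
Log2 difference between surface and crypt cells for each of the 10 genes on the heme diet (dark red) and the control diet (orange), with dotted lines at 2-fold. Edn1, Il18, Cxcl16, Cx3cl1 and Il1rn lie past 2-fold on the surface side on both diets, Ccl6 (-1.83 on heme, -2.04 on control) lies past it on the crypt side, and Il1rn (2.59 on heme, 1.64 on control) and Ccl20 (-0.19 on heme, 0.98 on control) show wide gaps between diets.

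Subtracting the heme difference of crypt cells from that of surface cells asks whether diet acted alike in both compartments. For Edn1 this difference was 0.01, for Cx3cl1 -0.13 and for Ccl6 0.21. Edn1 was below the floor in heme crypt cells, and with log2(2^value + 32) its value was -0.47, that of Cx3cl1 -0.27 and that of Ccl6 0.38. Ccl20 (-1.17) was the only one of the 10 past 2-fold, on values near the floor, and with log2(2^value + 32) it was at -0.65. Il1rn (0.94), Ccl28 (-0.82), Cxcl16 (-0.75), Il18 (0.64), Csf1 (0.51) and Il33 (-0.15) did not pass. Over the 11147 genes at the floor, 2.17% were lower and 3.29% higher, a split of 242 and 367 genes that became 318 and 303 with ribosomal protein centring and 338 and 287 with pan-epithelial centring. With 1 array per group, this difference of differences has no replicate check, and a small value does not show that the effects are equal.

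The receptors of these ligands were mostly at low levels. Of 15 listed receptor genes 12 were measured, and 8 of them, including Ccr1, Ccr3, Ccr6, Ccr10, Cxcr6 and the interleukin-18 receptor genes Il18r1 and Il18rap, were below the floor on all 4 arrays. No receptor gene was called in heme surface cells. Il18rap had 5.66 there, against 4.51 in control surface cells (1.15), both below the floor. Csf1r, the macrophage receptor for Csf1, had 6.82 in heme surface cells, against 6.72 in control surface cells, and 6.19 in heme crypt cells, against 7.20 in control crypt cells (-1.02), the 1 call among the receptors in crypt cells. Cx3cr1 had 6.54 in both surface pools, and 5.66 in heme crypt cells, against 6.44 in control crypt cells (-0.77). Ednrb, an endothelin receptor, had 7.62 in heme surface cells, against 6.78 in control surface cells (0.84), and was at or below 4.84 in crypt cells.

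Of 17 listed genes for processing, shedding and binding 14 were measured. Casp4, which encodes the mouse caspase-11 of the non-canonical inflammasome, was the 1 call for heme against control in either compartment: it had 6.85 in heme surface cells, against 8.51 in control surface cells (-1.66), and 6.44 in heme crypt cells, against 6.77 in control crypt cells (-0.33). Casp1, the protease that activates interleukin-18, differed by 0.20 in surface cells and -0.38 in crypt cells, and Il18bp, which captures interleukin-18, by -0.48 and 0.19. The sheddases of the transmembrane chemokines differed little: Adam10 by 0.26 in surface and 0.16 in crypt cells, and Adam17 by 0.04 and 0.05. Ece1, which cuts the endothelin precursor, differed by -0.69 in surface cells and -0.58 in crypt cells, short of 2-fold. Nlrp6, an inflammasome sensor of colon epithelium, differed by -0.60 and -0.39. The median of the 14 genes was -0.03 in surface cells and -0.03 in crypt cells, close to the -0.04 and 0.01 of all genes. Between compartments, on the deposited scale, Casp1 was higher in surface cells on heme (1.92) and on control (1.34), as were Gsdmd (1.91 and 1.77) and Nlrc4 (1.47 and 1.19). Pycard, the inflammasome adaptor, went the other way: it was called lower in surface cells on heme (-1.20) and was at -0.62 on control, where ribosomal protein centring turned its sign (0.62).

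Other signalling genes give context. Of 17 other cytokine genes 16 were measured, with 9 below the floor on all arrays. In heme surface cells Il15 (-2.27) and Tnfsf13b, encoding the B cell factor BAFF (-1.26), were lower and Mif (1.10) was higher, and in crypt cells none was called. With log2(2^value + 32), Tnfsf13b (-0.83) and Mif (0.98) were not called in surface cells and Il15 (-1.89) was. Mif in crypt cells had 9.67 with heme, against 8.68 without (0.988), just under the 2-fold line. Of 22 measured other chemokines 15 were below the floor on all arrays, and none was called for heme against control in either compartment. Ccl9, Ccl3, Ccl4 and Ccl5 lie beside Ccl6 on chromosome 11 in the gene table. With heme, Ccl9 differed by -0.45 in surface and -0.07 in crypt cells and Ccl5 by -0.79 and 0.07, none near the differences of Ccl6, while Ccl3 and Ccl4 were below the floor. Of 11 measured NF-kB response genes, Tnfaip3, a feedback inhibitor of that pathway, was the 1 called in heme surface cells (-1.25). None was called in heme crypt cells, where Tnfaip3 differed by -0.09. The median of the 11 was -0.20 in surface and -0.03 in crypt cells.

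Cells other than epithelium also make some of these ligands, and their markers were present in the pools. In such samples, fewer cells of a type and less RNA per cell cannot be told apart. Endothelial cells make Edn1 and Cx3cl1. In surface cells none of 9 endothelial markers was called, with a median heme difference of 0.06 and a log2 summed level of 10.56 in heme surface cells and 10.57 in control surface cells. In crypt cells all 9 lay below 0 (median -0.68), Cd34 was called (-1.20, and -0.98 with log2(2^value + 32)), and the log2 summed level was 9.50 in heme crypt cells and 10.12 in control crypt cells. In surface cells the 9 differences ran both ways, between -0.51 and 0.44. The part of endothelial cells in the Edn1 and Cx3cl1 results was not tested in either compartment.

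Myeloid cells are a known source of Ccl6 and Il1rn. Of 18 myeloid markers, 7 were below the floor on all arrays, among them the neutrophil genes S100a8, S100a9 and Mpo. In surface cells Siglecf was called lower (-1.04, and -0.60 with log2(2^value + 32)) and 15 of the 18 lay above 0, with a median of 0.23 and a log2 summed level of 10.51 in heme surface cells and 10.22 in control surface cells. Lyz2 had 8.74 in heme surface cells, against 7.84 in control surface cells (0.89), and without it the log2 summed level was 10.01 in heme surface cells and 9.91 in control surface cells. These sums weight bright probe sets most. The counts and medians of the 18 include markers below the floor. Over the 11 at the floor in surface cells the median was 0.19, and over the 9 at the floor in crypt cells it was -0.61. In crypt cells 12 of 18 lay below 0 (median -0.28), Csf1r was called lower (-1.02, and -0.77 with log2(2^value + 32)), and the log2 summed level was 9.93 in heme crypt cells and 10.36 in control crypt cells. The part of myeloid cells in the Ccl6 and Il1rn results was not tested in either compartment.

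All 13 smooth muscle and fibroblast markers lay below 0 in crypt cells (median -0.72), where Lum (-1.38), Vim (-1.27) and Dcn (-1.17) were called (Lum, below the floor with heme, was at -0.81 with log2(2^value + 32)), and 10 of 13 did in surface cells (median -0.44), where none was called. Their log2 summed level was 12.13 in heme surface cells and 12.36 in control surface cells, and 11.80 in heme crypt cells and 12.64 in control crypt cells. The part of stromal cells in the Ccl6 result was not tested in either compartment. Of 11 measured lymphocyte markers 8 were below the floor on all arrays and none was called for heme against control. Surface cells had a median difference of -0.02 over the 10 pan-epithelial markers, crypt cells one of -0.21, and none was called.

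**Figure D4:**
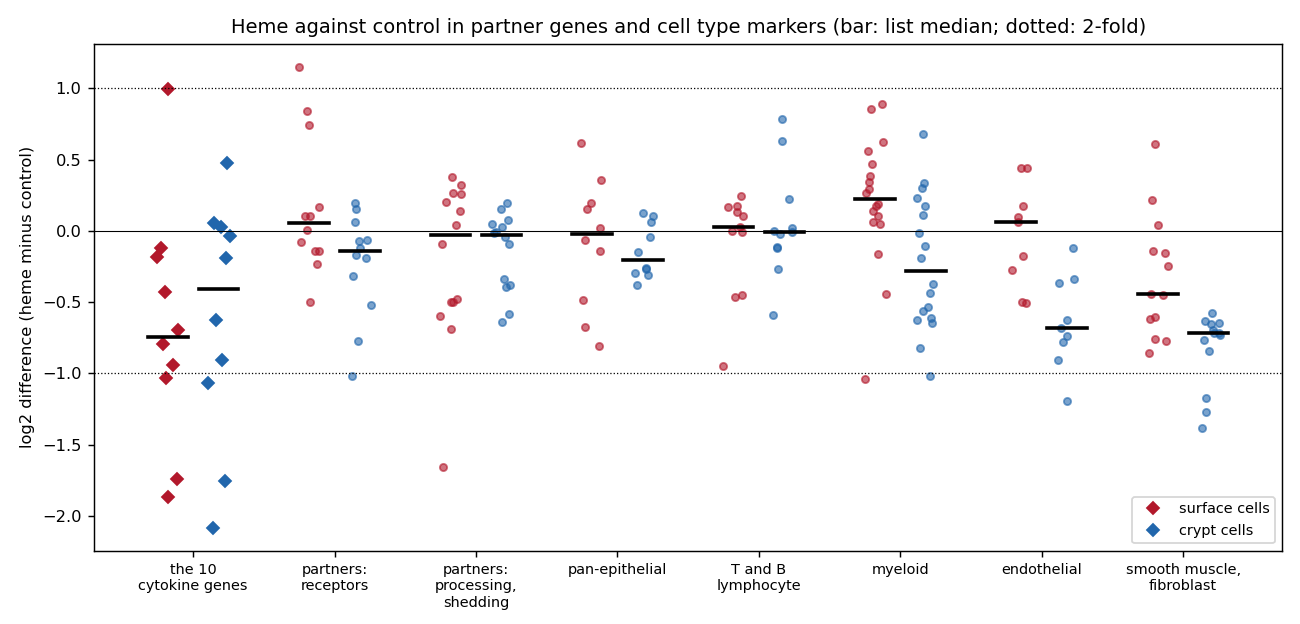
Log2 difference between heme and control diet (vertical axis) for the 10 cytokine and chemokine genes (diamonds) and for partner genes and cell type markers (circles), in surface cells (red) and crypt cells (blue), with black bars at list medians and dotted lines at 2-fold. Medians in surface and crypt cells were 0.06 and -0.68 for endothelial markers and 0.23 and -0.28 for myeloid markers. For smooth muscle and fibroblast markers they were -0.44 and -0.72. The lowest diamonds, Ccl6 and Edn1, lie below -1.7 in both compartments. The Edn1 value in heme crypt cells was below the floor.

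For the 4 genes called in a heme comparison, the genes with the most similar profile were sought among 10679 by Euclidean distance between the 4 log2 values, each centred on its gene's mean. This describes likeness over 4 arrays only. Nearest to Ccl6 was Aspn (distance 0.33), encoding the matrix protein asporin, which had 4.26 in heme surface cells, against 5.97 in control surface cells, and 6.28 in heme crypt cells, against 7.93 in control crypt cells. The sulfotransferase gene Sult1a1 (0.70) and Zan (0.75) followed. Aspn and Zan were below the floor in heme surface cells. Nearest to Edn1 were Spats2l (0.76), Trim12a (0.79) and the interferon-induced gene Oasl2 (0.80), none as close as Aspn to Ccl6. Like Edn1, Spats2l, Trim12a and Oasl2 were below the floor in heme crypt cells. Nearest to Cx3cl1 were Usp53 (0.33), the chloride channel gene Ano1 (0.35) and H2-Q2 (0.41). Nearest to Il18 were Gde1 (0.26), Clca1 (0.30), which encodes a secreted goblet cell protein, and Trim12a (0.31).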

How the data were processed

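RNA of 4 pools, 100 ng per pool per the labels' protocols, was hybridised to 4 Affymetrix arrays, 1 per group. The deposited table holds 1 log2 value for each probe set and array. Per the submitters' processing notes these came out of RMA, whose version, and which arrays it normalized jointly, the sources used here do not give. The files used hold no detection call. With 1 array per group, precision cannot be estimated.

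Gene symbols came from the platform annotation and were brought up to date with the GRCm38.p6 gene table. Of 35556 probe sets, 21789 had 1 symbol, 1621 had several and 12146 had none there. A current symbol was matched for 21698. A gene is the mean of its single-symbol probe sets. All genes went through the same size rule. Named genes are the 10 members, their receptors and processing partners, up to 4 called genes of each further list, and the 3 nearest profiles. Uncalled genes of other lists named beside them (Lyz2, and Ccl9, Ccl3, Ccl4 and Ccl5 as neighbours of Ccl6) were chosen after their values were seen. Members and lists were chosen with earlier results of these data known. Alternatives were an offset of 32 before the log, other scalings, floors and fold limits, and 1 probe set per gene. The myeloid sum without Lyz2 was added after seeing the data. Python 3.11.15, numpy 2.4.6, pandas 2.3.3, matplotlib 3.10.9 and limma 3.58.1 under R 4.3.3 were used.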

Additional observations from a re-analysis of the deposited data

Results flagged for a closer look

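For 2 of the 10 genes the heme difference had opposite signs in surface and crypt cells. Ccl20 differed by -0.693 in surface cells and by 0.476 in crypt cells, a gap of -1.17, on values near or below the floor. Ccl28 differed by -0.793 in surface cells and by 0.0257 in crypt cells, a gap of -0.819, with a crypt value close to 0. The same gaps appear between diets: the surface minus crypt difference of Ccl20 was -0.193 on heme and 0.977 on control, and that of Ccl28 was -0.765 on heme and 0.0543 on control. With 1 array per group these differences were not tested.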

How the results depend on the processing

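No paired analysis was possible because each group holds 1 array. Over 450 recalculated differences of the 10 genes, 408 kept their side of the size rule, 20 lost a call, 22 gained one and none that was called changed sign. The 408 include 50 with the highest probe set per gene, whose values could not differ because each of the 10 genes has 1 probe set. The 50 without a floor also all stayed the same. For heme against control in surface cells, ribosomal protein centring, cyclic loess, the 1.5-fold limit and pan-epithelial centring (a scaling chosen after seeing the data) each gave 1 higher gene, Il1rn, in place of 0. At 1.5-fold, 6 genes were lower in surface cells (7.92% of the genes at the floor) and 5 in crypt cells (5.60%), in place of 3 each. At that limit 2 were lower in surface than crypt on heme, where 27.6% of the genes at the floor were. The heme effect in surface minus that in crypt had 2 higher (10.1% of the genes at the floor) and 3 lower genes (8.18%). That last comparison had 0 lower genes, in place of Ccl20, with log2(2^value + 32), with the floor raised by 1 and at 3-fold. The shares lower over the genes at the floor were then 1.12%, 2.30% and 0.314%. Surface against crypt, ribosomal protein centring left 0 lower genes on either diet, with 2.7% of the genes at the floor lower on heme and 1.02% on control. Pan-epithelial centring gave 2 lower on control, where 46.5% of the genes at the floor were lower. On heme it gave 3 higher and 4 lower, where 4.71% of the genes at the floor were higher and 53.0% lower. Il18 in crypt cells was not called with that offset, either centring, the raised floor or 3-fold, and Ccl6 and Edn1 were lower with heme in both compartments under all alternatives run. The changed counts follow from the limits themselves for floor and fold. For the scalings the cause was not tested.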

Other observations

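Among the other chemokines, Cxcl5, which attracts neutrophils, was singled out after its values were seen: it had 5.73 in heme surface cells, against 3.54 in control surface cells (2.19), and 3.78 in heme crypt cells, against 3.20 in control crypt cells (0.58). Its highest value lies just under the floor, so it was not called. Of the neutrophil markers, S100a8 differed by 0.35 and S100a9 by 0.29 in heme surface cells, all values below the floor.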
